A study of Mus musculus with 11 samples.

Results

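The ZIC2 peaks described here are those of mouse epiblast stem cells (EpiSCs) that lie at a promoter, meaning that the peak midpoint was within 1000 bp of the transcription start site (TSS) of any annotated transcript and that the peak was at most 2000 bp wide. Of 121805 ZIC2 peaks on the 19 autosomes and the X chromosome, 17437 met both limits, a share of 14.3% (95% Wilson interval 14.1 to 14.5%). Position and width in the EpiSC ZIC2 list chose these peaks, so their number, width and distance to a TSS describe the choice and were not tested. They are called promoter ZIC2 peaks below, and the 94725 peaks that met the width limit but not the distance limit are called other ZIC2 peaks. A further 4230 ZIC2 peaks lay at a TSS but were wider than 2000 bp, and these are called broad peaks.

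Binding of ZIC2 and of OTX2, SOX2, POU3F1 and POU5F1 was measured by ChIP-seq in EpiSCs of the 129/Sv strain, and each factor had 1 library in each of 2 cultures. EpiSCs were grown without feeders in DMEM/F12 that held N2/B27, activin at 20 ng/ml and Fgf2 at 10 ng/ml, and activin-free cultures were harvested 18 h after activin was taken away. In both cultures each factor was expressed from a transfected pCAGGS vector with a BLRP sequence, which the BirA ligase of the same vector biotinylates, and chromatin was recovered on streptavidin. The peaks are therefore those of a tagged, added protein, and not of the endogenous factor. All 10 peak lists were called against the same input, and read depth is not known. Each peak carries a MACS score, which is 10 times the negative log10 of its p-value, and the lowest score in any list was 50. The intervals given below cover counting error over the peaks of single libraries. Peaks of a library are not replicates of a culture, and no spread between libraries could be measured. Peak positions hold no expression values, so the identity of the cells could not be checked against marker genes.

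ZIC2 is a zinc-finger transcription factor related to the GLI proteins of the Hedgehog pathway, and is known for its part in forebrain and neural tube development. EpiSCs are derived from the postimplantation epiblast, the tissue from which the germ layers form, and depend on activin and FGF signals. OTX2, SOX2, POU5F1 and POU3F1 are transcription factors of the same cells, and OTX2 and POU3F1 are also regulators of the early neural plate. Most mammalian promoters lie in CpG islands, which are rich in G, C and unmethylated CpG dinucleotides, while promoters of many tissue-restricted genes lack them.

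The stretches below show the centres of 5 promoter ZIC2 peaks, each the highest-scoring peak of its class at a protein-coding gene whose central 150 bases overlap no annotated exon. The sequences were read from mm9 on the strand of the gene. Capitals mark CpG dinucleotides and exact matches to the motifs that were searched. The classes are no peak of another factor (Ube2d1), an OTX2 peak alone (Pak6), OTX2 and SOX2 peaks (Cpsf4l), a POU factor (Plekha5), and no ZIC2 peak in the activin-free list (Thbs1).
Ube2d1, chr10:70747673-70747822, minus strand: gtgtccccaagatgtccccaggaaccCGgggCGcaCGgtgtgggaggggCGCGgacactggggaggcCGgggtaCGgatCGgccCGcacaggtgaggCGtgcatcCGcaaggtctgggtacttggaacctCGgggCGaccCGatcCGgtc
Pak6, chr2:118503126-118503275, plus strand: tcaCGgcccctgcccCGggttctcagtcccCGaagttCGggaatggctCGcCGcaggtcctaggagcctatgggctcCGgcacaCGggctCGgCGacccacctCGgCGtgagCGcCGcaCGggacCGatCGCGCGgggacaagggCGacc
Cpsf4l, chr11:113571518-113571667, minus strand: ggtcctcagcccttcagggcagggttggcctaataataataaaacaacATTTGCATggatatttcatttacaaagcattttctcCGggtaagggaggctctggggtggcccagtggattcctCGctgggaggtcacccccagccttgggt
Plekha5, chr6:140373187-140373336, plus strand: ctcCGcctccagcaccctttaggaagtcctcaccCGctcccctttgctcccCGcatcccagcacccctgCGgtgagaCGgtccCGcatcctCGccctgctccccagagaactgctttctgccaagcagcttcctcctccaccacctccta
Thbs1, chr2:117937042-117937191, plus strand: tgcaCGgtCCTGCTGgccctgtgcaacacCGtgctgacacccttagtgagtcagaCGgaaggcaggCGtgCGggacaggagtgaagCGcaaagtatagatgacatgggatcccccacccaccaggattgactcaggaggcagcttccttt
These windows differed in composition. The window at Pak6, which encodes a p21-activated kinase, held 20 CpG dinucleotides at 72.7% G and C, and that at Ube2d1, a ubiquitin-conjugating enzyme, held 15 at 70.7%. The Cpsf4l window held 2 CpG dinucleotides at 52.0% and an octamer, the POU factor motif, although no POU5F1 or POU3F1 peak overlapped this ZIC2 peak in either culture. Of the 5, the Thbs1 window alone held the ZIC motif CCTGCTG. Its ZIC2 score of 314 was far under the scores of 2224 to 3186 at the other 4 genes. As 314 was the highest score in its class, this gap follows from the choice of classes.

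Promoter ZIC2 peaks had a median score of 309, between a lowest of 50 and a highest of 3210, and a median width of 1109 bp. Other ZIC2 peaks had a median score of 137 and a median width of 795 bp, and broad peaks at promoters had a median score of 1494. The median distance from midpoint to TSS was 190 bp, and 80.4% of the promoter peaks covered a TSS. Peaks within 100 bp of a TSS had a median score of 349, whereas those 500 to 1000 bp away had a median of 175, near the 142 of peaks 1000 to 2000 bp away. Where a single gene had a TSS within the limit, the midpoint was downstream of the TSS in 63.9% of 15448 peaks, with a median position of 82 bp into the transcribed side. On either side of the limits, the 24 peaks at 998 to 1000 bp had a median score of 102 and the 28 at 1001 to 1003 bp one of 119, while the 18 peaks of 1997 to 2000 bp width had a median of 1187 and the 21 of 2001 to 2004 bp one of 892.

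The highest scores were at genes of unlike function. The peak at Lypd6, a membrane-anchored protein of the Ly6 family, scored 3210 (chr2:49921338-49922854 in mm9). It was followed by Ube2d1 with 3186, the actin-bundling protein gene Espn with 3182, the neuropeptide gene Galp with 3176 and Tulp3, which acts in ciliary trafficking, with 3139. None of these 5 overlapped an EpiSC peak of another factor. Pqlc1 scored 3115. Below it 17 promoter ZIC2 peaks were tied at exactly 3100, a value at which scores collect, and Pak6, Spata5l1, the growth factor gene Bmp2 and Gm11701, all on chromosome 2, are those of the tie that came first by position. Of all 23 promoter ZIC2 peaks with a score of 3100 or more, 10 overlapped an OTX2 peak (43.5%, 25.6 to 63.2%), against 26.3% of all promoter ZIC2 peaks and 14.8% of all ZIC2 peaks. All 23 also had an activin-free ZIC2 peak of 3100 or more, against an activin-free peak of any score at 87.7% of the promoter ZIC2 peaks and 78.9% of all ZIC2 peaks.

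Promoter ZIC2 peaks were found at 12490 of 22350 protein-coding genes, a background of 55.9% (55.2 to 56.5%) for the gene groups below. A further 11.8% had only a broad peak, so that 67.7% had a ZIC2 peak of either kind, and 32.3% had none. Of all 37252 annotated genes, 40.7% had a promoter ZIC2 peak. The share was 49.9% for lincRNA genes, 17.5% for miRNA genes, 9.19% for pseudogenes and 7.59% for snRNA genes. Of the promoter ZIC2 peaks, 89.0% were within the limit of a protein-coding gene, and 5.63% were within it of protein-coding genes on both strands. Annotated TSSs include starts inside genes, which gave Sh3tc1 and Ssbp3 8 promoter peaks each.

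CpG content of the promoter separated genes with and without a peak. When each gene was read at its 5′-most TSS, 72.1% of high-CpG promoters (71.1 to 73.1%), 60.6% of intermediate ones (59.3 to 61.9%) and 25.4% of low-CpG ones (24.5 to 26.3%) had a promoter ZIC2 peak. No ZIC2 peak of any width was found at 5.18% of the high-CpG and 69.8% of the low-CpG promoters. High CpG means a ratio of observed to expected CpG of at least 0.75 at a GC content of at least 55% in the 250 bp to either side, and low CpG a ratio under 0.48. The X chromosome had a lower share than the autosomes, 42.3% of 932 genes (39.1 to 45.5%) against 56.5% (55.8 to 57.1%). Leaving out olfactory and vomeronasal receptor genes, the X chromosome had 42.6% and single autosomes had 49.8 to 68.4%.

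Groups of genes that dividing cells use in general stood above the background of 55.9%. A peak was present at 62 of 67 replication-dependent histone genes (92.5%, 83.7 to 96.8%), 34 of 37 genes of mitochondrial complex I, 34 of 39 proteasome subunit genes, 26 of 30 genes of replication and the cell cycle, and 66 of 83 genes of cytoplasmic ribosomal proteins. Median scores at these 5 groups, taking the highest peak of each gene, ran from 248 to 415, on either side of the 309 of all promoter ZIC2 peaks. The linker histone genes Hist1h1c, Hist1h1e and Hist1h1d stood higher, with 1924, 1401 and 1320. Mcm7, a subunit of the replicative helicase, scored 1534, and Ndufb5 of complex I scored 1501. OTX2 peaks overlapped the highest promoter ZIC2 peak at 48 of the 62 histone genes and at 14 of the 34 complex I genes (41.2%), against 26.3% of all promoter ZIC2 peaks. Some histone genes share a peak, and the 62 genes had 49 distinct peaks, 38 of them with OTX2 (77.6%). Histone genes are also alike in sequence, and how reads with several matches were counted is not given in the sources used here.

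Sensory receptor genes were at the other end. Promoter ZIC2 peaks were present at 21 of 1113 olfactory receptor genes (1.89%, 1.24 to 2.87%) and at 0 of 321 vomeronasal receptor genes, with a Wilson upper limit of 1.18%. The clustered protocadherin genes had 4 of 24, with 921 at Pcdha11 and 679 at Pcdhgc5, and with 62.2 and 52.4 at Pcdhb1 and Pcdhb22. Genes of other tissues were nearer to the background. Liver secreted proteins had 9 of 20, with 697 at F2 (prothrombin) and 524 at Apoc3, and Alb, Ttr and Cyp7a1 were among the 11 without any ZIC2 peak. Keratins had 24 of 50, led by Krt80 with 2020 and Krt16 with 1770.

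**Figure D1:**
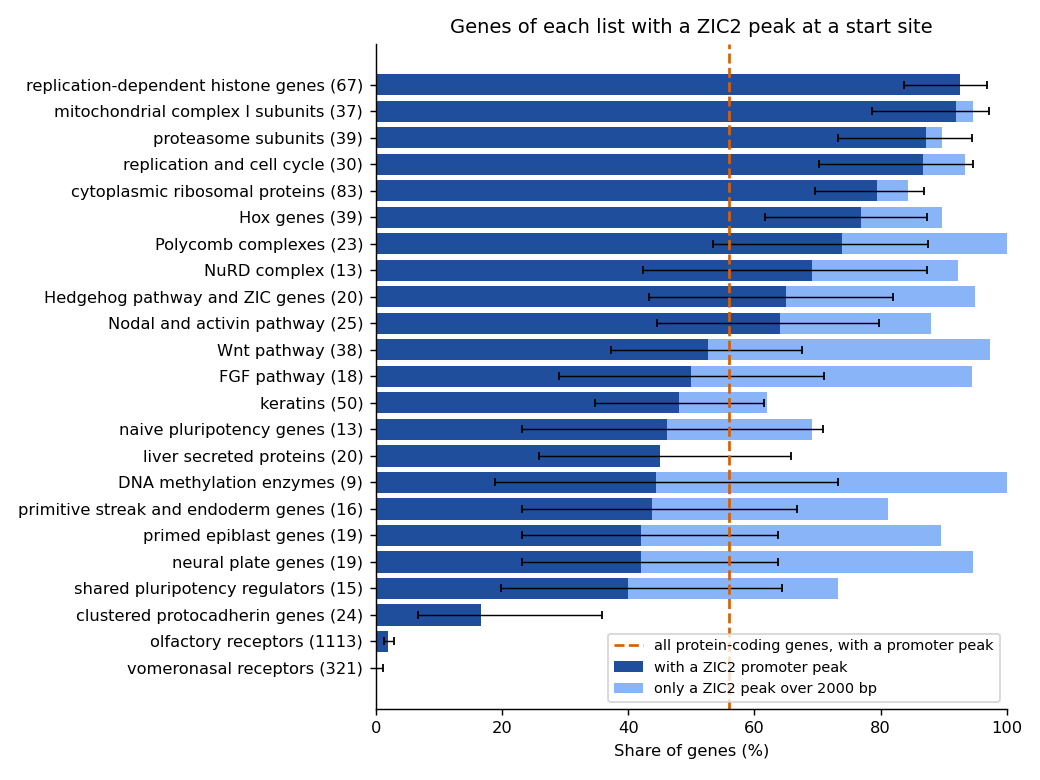
Share of the genes of each list (number of genes in brackets) with a promoter ZIC2 peak (dark bars, 95% Wilson interval) or with only a ZIC2 peak wider than 2000 bp at a TSS (light bars), with the 55.9% of all protein-coding genes as a dashed line. Histone, complex I, proteasome, replication and ribosomal protein genes lie to the right of the line, receptor and protocadherin genes lie to its left, and the DNA methylation list gains most from broad peaks, from 44.4% to 100%.

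In the Wnt, neural plate, primed epiblast and FGF lists the shares with a promoter ZIC2 peak had intervals that included the background of 55.9%, and most of their remaining genes had broad peaks. Of the Wnt pathway genes 20 of 38 (52.6%, 37.3 to 67.5%) had a promoter peak, and with broad peaks the number was 37. Of the neural plate genes it was 8 of 19 and 18 with broad peaks, of the primed epiblast genes 8 of 19 and 17, and of the FGF pathway genes 9 of 18 and 17. The corresponding shares with a ZIC2 peak of either width were 97.4%, 94.7%, 89.5% and 94.4%, against 67.7% of all protein-coding genes. The shares with a promoter peak rested on the limits used. With a TSS distance of 500 bp the neural plate list fell from 42.1% to 21.1% and the Hedgehog and ZIC list described below from 65.0% to 35.0%, against 51.2% of all protein-coding genes, and with TSSs of protein-coding transcripts the FGF list fell from 50% to 27.8%, against 53.4%. Fgf8, Nodal, Foxd3, Sox11 and Pou3f1 itself were among the primed epiblast genes with a broad peak alone. All 23 genes of the Polycomb repressive complexes had a ZIC2 peak, 17 of them a promoter peak and 6 (among them Pcgf3 and Ring1) a broad one.

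In the Nodal and activin pathway, 16 of 25 genes had a promoter ZIC2 peak (64.0%, 44.5 to 79.8%), with an interval that included the background of 55.9%. All 16 had one in the activin-free list too, against 87.7% of all promoter ZIC2 peaks. In this and the other gene lists the peak read is the highest of each gene, whereas the shares of all promoter ZIC2 peaks take in every score. The 16 had a median score of 700, and of all promoter ZIC2 peaks scoring 309 to 503, 99.9% had an activin-free peak. Among the receptors, Acvr1c scored 2562 (3100 activin-free), Acvr1b 976 (2632) and Acvr2a 362 (153). The scores were thus higher at the type I receptors Acvr1c and Acvr1b than at the type II receptor Acvr2a. Acvr2b, also of type II, had a broad peak only, and its score is not given here. The order of receptors therefore holds only for peaks within the width limit. Of the extracellular members, the inhibitor Lefty1 scored 1155 (924) and the coreceptor gene Cfc1 scored 989 (1926), while Furin, a protease that processes Nodal precursors, scored 1294 (1942). Lefty1 and Furin also had broad peaks, with scores of 2487 and 1076. Among the signal transducers, the promoter peaks scored 1011 (1140) at Smad4, 241 (298) at Smad2 and 68.4 (64.3) at Smad3. Smad3 also had a broad peak of score 3207, above all of these, so the order holds only for peaks within the width limit. OTX2 overlapped at 2 of the 16 (12.5%, against 26.3% of all promoter ZIC2 peaks), Acvr2a with a score of 119 and Tgif1, a homeodomain corepressor of SMADs, with 707.

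The Hedgehog pathway, whose GLI effectors are related to ZIC2, had promoter ZIC2 peaks at ligand, coreceptor, transducer and effector genes. The signal transducer gene Smo scored 2344 (3100 activin-free) and the coreceptor gene Cdon 2006 (3196), with OTX2 peaks of score 85.2 and 91.7. The inhibitor gene Sufu scored 555 (803), with an OTX2 peak of score 255. The ligand genes Dhh and Shh were lower at 249 and 141, and Ihh had a broad peak only. Gli1, both an effector and a target of the pathway, had a promoter peak of 180 beside a broad peak of 2608, and the activin-free peak overlapping the promoter peak scored 3100. With the ZIC genes, 13 of the 20 genes of this list had a promoter peak (65.0%, 43.3 to 81.9%), with an interval that included the background of 55.9%. Of these 13, 6 had OTX2 at it (46.2%, against 26.3% of all promoter ZIC2 peaks).

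At the pluripotency genes the peaks were unequal. L1td1, which encodes an RNA-binding protein of pluripotent cells, scored 1164, Lin28b 553, Pou5f1 430, Sall4 336, Trim28 113 and Nanog 102. In the activin-free list the overlapping peaks of the same 6 genes scored 1912, 671, 658, 303, 228 and 302. OTX2 peaks lay at L1td1 (389), Pou5f1 (410) and Nanog (210), where the OTX2 score exceeded that of ZIC2. Fgf5, a marker of the primed epiblast, scored 1304 (1907), Lefty2 174 (190) and Otx2 76.8 with no activin-free peak. Among regulators of the primitive streak and endoderm, Eomes scored 1937 (2222), Foxa2 1152 (1970) and Sox17 195 (102). These scores leave out broad peaks, which Pou5f1, Sall4 and Trim28 also had, with scores of 2029, 3217 and 1829. By list, promoter ZIC2 peaks were present at 6 of 15 shared pluripotency genes (11 with broad peaks), 6 of 13 naive pluripotency genes (9), and 7 of 16 primitive streak and endoderm genes (13). The shares with a promoter peak were 40.0% (19.8 to 64.3%), 46.2% (23.2 to 70.9%) and 43.8% (23.1 to 66.8%). Each interval included the background of 55.9%. With broad peaks the shares were 73.3%, 69.2% and 81.2%, against 67.7% of all protein-coding genes. In the naive list Tet2 scored 1296, the orphan receptor genes Nr0b1 and Esrrb 720 and 400, and Klf5 633, while Zfp42 and Dppa3 had no ZIC2 peak. Esrrb also had a broad peak of score 1369.

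The Zic2 gene had a promoter ZIC2 peak of score 3100 in both cultures (chr14:122877439-122878721 in mm9), with its midpoint 758 bp into the gene. This peak covered 515 coding bases of Zic2, sequence that the transfected vector also carries, and it overlapped an OTX2 peak (678) and a POU3F1 peak (379). How much of its score comes from the vector was not tested. Of the other 4 factor genes, Pou5f1 had 3 promoter ZIC2 peaks and Otx2 had 2, while Sox2 and Pou3f1 had only broad ones.

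In Hox genes, promoter ZIC2 peaks were found at 30 of 39 (76.9%, 61.7 to 87.4%), against 55.9% of all protein-coding genes. Again all had an activin-free peak, against 87.7% of all promoter ZIC2 peaks. These 30, the highest of each gene, had a median score of 392, against 309 for all promoter ZIC2 peaks. Hoxb9 scored 2404, Hoxd3 2069, Hoxd1 1609 and Hoxd8 1398, and OTX2 overlapped at 5 of the 30 (16.7%, against 26.3%). Subunits of chromatin complexes spanned a similar range. In the Polycomb list the median was 769 between 1715 and 82.7, with Suz12 at 1715, Jarid2 at 1675, Phc3 at 1549 and Pcgf1 at 1512 at the top and Eed at 287, Pcgf6 at 205 and Bmi1 at 82.7 at the bottom. In the NuRD list the median was 925, with Hdac2 at 1664 and Hdac1 at 1189 at the top, and Chd3 at 244 and Mta1 at 97.9 at the bottom. For the DNA demethylases Tet2 and Tet1 the scores were 1296 and 877, and for the methyltransferase Dnmt3a 713. Dnmt3a also had broad peaks, the highest with a score of 3100. Promoter peaks were present at 9 of 13 NuRD genes (69.2%, 42.4 to 87.3%) and 4 of 9 genes of DNA methylation (44.4%, 18.9 to 73.3%). Both intervals included the 55.9% of all protein-coding genes. With broad peaks the numbers were 12 (92.3%) and 9 (100%), against 67.7% of all protein-coding genes.

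Peaks of OTX2 overlapped 26.3% of the promoter ZIC2 peaks (4582 of 17437) and 11.5% of other ZIC2 peaks, against 14.8% of all ZIC2 peaks, with an overlap of at least 1 bp. The difference was 14.8 percentage points (95% Newcombe interval 14.1 to 15.5). Promoter ZIC2 peaks were also wider, and among peaks of at most 1000 bp the OTX2 shares were 19.1% and 10.6%, a difference of 8.50 points (7.58 to 9.45). SOX2 overlapped 4.89% and 2.17%, against 2.74% of all ZIC2 peaks, a difference of 2.72 points (2.39 to 3.06). For the POU factors the differences were small and of the opposite sign. POU5F1 overlapped 2.49% and 2.93% (2.85% of all; -0.439 points, -0.686 to -0.175), and POU3F1 overlapped 1.04% and 1.24% (1.16% of all; -0.201 points, -0.359 to -0.0258). The POU5F1 interval included 0 against other ZIC2 peaks 1 to 50 kb from a TSS (-0.475 to 0.0426) and with TSSs of protein-coding transcripts (-0.532 to 0.0587). The sign for POU3F1 depended on the comparison, since other ZIC2 peaks 1 to 50 kb from a TSS met POU3F1 in 0.850% (0.188 points, 0.0329 to 0.362) and those over 50 kb away in 2.85%. Broad peaks at promoters met OTX2 in 35.5% and SOX2 in 6.95%.

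**Figure D2:**
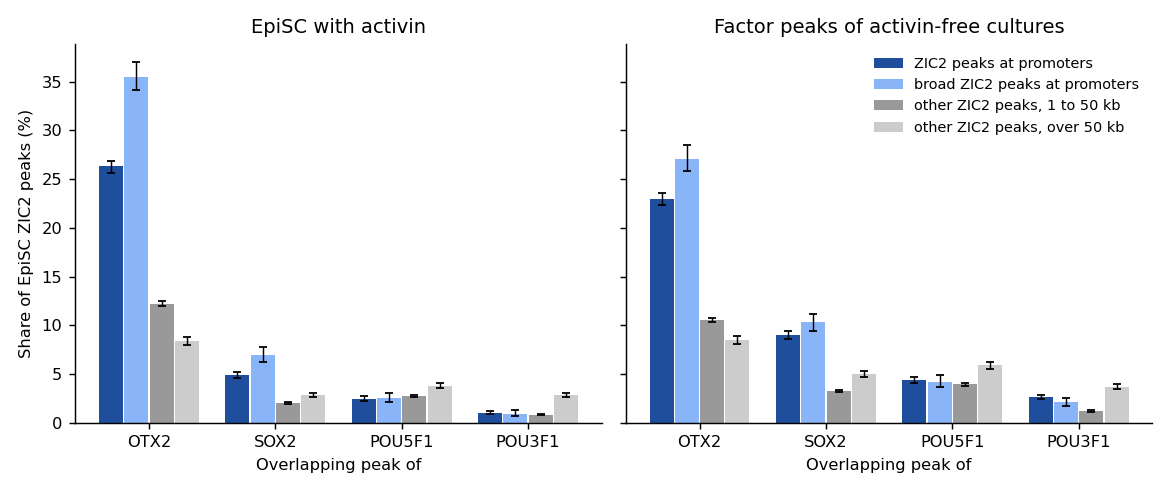
Share of EpiSC ZIC2 peaks that overlap a peak of each other factor, taken from EpiSCs (left) or from activin-free cultures (right), with 95% Wilson intervals. OTX2 stands out at promoters in both panels, with 26.3% of the promoter ZIC2 peaks on the left and 23.0% on the right, and the POU factors stay under 6%.

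No peak of another factor overlapped 69.4% of the promoter ZIC2 peaks, compared with 84.1% of other ZIC2 peaks (-14.7 points, -15.5 to -14.0). OTX2 alone was present at 22.9%, OTX2 with SOX2 at 2.33%, SOX2 alone at 2.19% and POU5F1 alone at 1.30%. All 4 other factors met at 8 promoter ZIC2 peaks (0.0459%), against 0.0317% of other ZIC2 peaks and 0.0353% of all ZIC2 peaks. The interval of the difference between promoter and other ZIC2 peaks included 0 (-0.0122 to 0.0598 points). The highest-scoring of the 8 was at Ezh2, the Polycomb methyltransferase. At Ezh2 the ZIC2 peak (chr6:47543937-47545887 in mm9) scored 713, and OTX2 scored 237, SOX2 103, POU5F1 822 and POU3F1 335. In the activin-free lists the corresponding scores were 1014, 895, 127, 3100 and 1074, each higher than with activin. The telomere protein gene Pot1b (444), St7 (422), the phosphodiesterase gene Pde4d (394) and Gm12059 (388) followed, and POU5F1 scored 3100 in the activin-free list at Pot1b, St7 and Gm12059 and had no peak there at Pde4d.

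The overlapping OTX2 peaks were centred beside the ZIC2 peaks more than on them. At promoters the OTX2 midpoint was a median of 651 bp from the ZIC2 midpoint, compared with 402 bp at other ZIC2 peaks, and 5.28% of the pairs were within 100 bp, compared with 13.9%. From the TSS, the OTX2 midpoints were at a median of 577 bp and the ZIC2 midpoints of the same pairs at 133 bp, and OTX2 was the farther one in 84.6% of pairs. The same held for SOX2 (median 590 bp from the TSS), POU5F1 (746 bp) and POU3F1 (845 bp). The choice held the ZIC2 midpoints within 1000 bp of a TSS and set no such limit for the other factors. The order of distances to the TSS is therefore partly built in by the choice. With midpoints this far apart, the measure of overlap set the size of the difference. When both peaks had to share at least 50% of their length, OTX2 met 6.07% of promoter and 4.70% of other ZIC2 peaks, and with midpoints within 500 bp it met 10.0% and 7.23%, so that the difference fell to 1.37 points (1.00 to 1.76) and 2.78 points (2.31 to 3.26). With midpoints within 100 bp, OTX2 met 1.55% and 1.65%, and the interval of the difference included 0 (-0.298 to 0.104). For SOX2 the sign turned with the 50% limit (0.70% against 0.868%, -0.168 points, -0.297 to -0.0215).

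Around the 5′-most TSS of the 12490 genes with a promoter ZIC2 peak, the ZIC2 midpoints formed a single summit and the OTX2 midpoints formed shoulders on both sides. ZIC2 had 298 midpoints per 1000 genes in the first 200 bp downstream of the TSS, and 19.1 in the bin farthest upstream. These genes were chosen for a ZIC2 midpoint within 1000 bp of a TSS, so the presence of a ZIC2 summit describes the choice. The genes without a ZIC2 peak lack ZIC2 midpoints there by definition. OTX2 had 44.6 per 1000 genes at 400 to 600 bp upstream, 15.9 in the first 200 bp downstream and 36.1 at 1200 to 1400 bp downstream. SOX2 showed the same dip at a lower level, with 7.69, 1.84 and 7.61 in these 3 bins. POU3F1 had 0.160 at 200 to 400 bp downstream and 3.52 in the bin farthest downstream. At genes without a ZIC2 peak OTX2 stayed between 6.09 and 13.3 in all bins, with 10.9, 10.2 and 6.92 in the same 3 bins, and POU3F1 again dipped, to 2.63 in the first 200 bp downstream from 13.6 at 600 to 800 bp upstream.

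**Figure D3:**
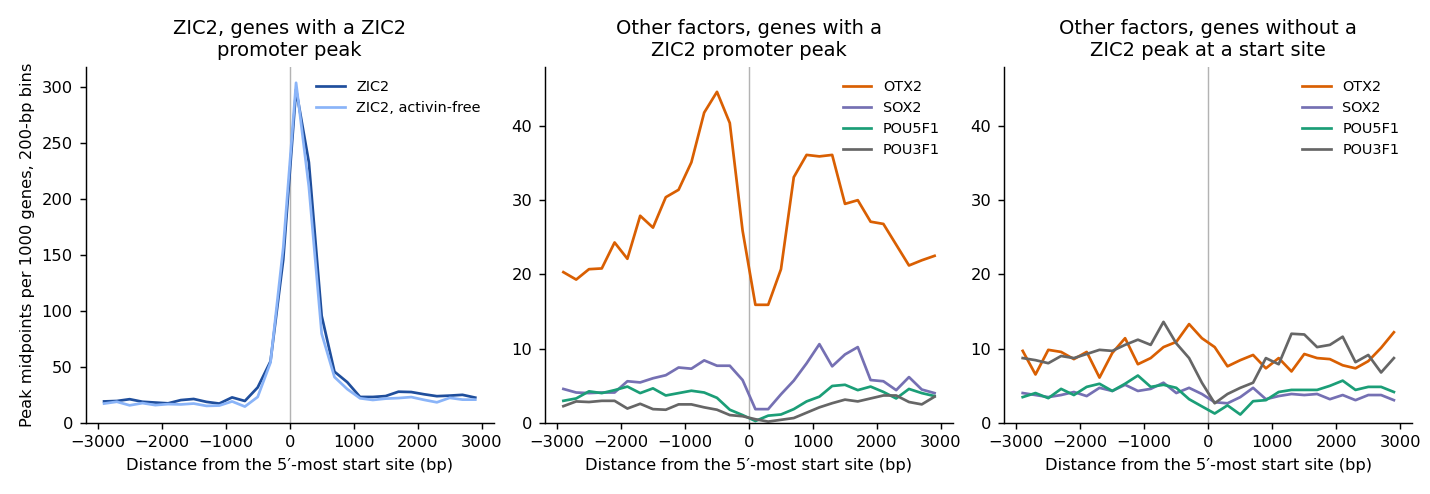
Peak midpoints per 1000 genes in 200-bp bins around the 5′-most TSS, with downstream to the right, for ZIC2 in both cultures (left) and for the other factors at genes with a promoter ZIC2 peak (middle) and at genes without a ZIC2 peak within 1000 bp of a TSS (right). ZIC2 reaches 298 just downstream of the TSS, where OTX2 falls to 15.9 between shoulders of 44.6 and 36.1, and at genes without ZIC2 the OTX2 line stays between 6.09 and 13.3. The genes were chosen by their ZIC2 peaks, so the ZIC2 summit describes the choice.

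The OTX2 difference was also present between genes. An OTX2 midpoint lay within 1000 bp of the 5′-most TSS at 29.6% of the promoters with a promoter ZIC2 peak and at 10.8% of those without a ZIC2 peak (18.8 points, 17.7 to 19.9). Within high-CpG promoters the shares were 32.5% and 20.5% (12 points, 7.47 to 15.9), within intermediate ones 33.5% and 21.0%, and within low-CpG ones 18.4% and 8.54% (9.86 points, 8.23 to 11.6). POU3F1 went the other way, with 1.02% and 6.41% (-5.39 points, -5.96 to -4.84). Its difference lay mostly in low-CpG promoters, where the shares were 1.02% and 7.37%, and within high-CpG promoters the interval included 0 (0.906% and 1.84%, -2.85 to 0.0575). SOX2 differed at high-CpG promoters (6.76% and 2.10%, 4.66 points, 2.57 to 5.91), whereas at low-CpG ones the interval included 0 (3.33% and 4.13%).

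The share with OTX2 rose with the ZIC2 score at promoters and elsewhere. Across 6 equal groups of promoter ZIC2 peaks by score it went from 15.9% in the lowest to 36.1% in the highest, while other ZIC2 peaks within the same score limits went from 9.61% to 17.4%. Promoter ZIC2 peaks with OTX2 had a median score of 432 and a mean ratio of observed to expected CpG of 0.683, against 271 and 0.484 without OTX2. The OTX2 difference was 7.64 points within the lowest tercile of GC content, 7.27 within the middle one and 21.0 within the highest one, which held 11670 of the promoter ZIC2 peaks. Score, width and CpG content thus moved together with the presence of OTX2, and their part in it was not tested.

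An activin-free ZIC2 peak overlapped 87.7% of the promoter ZIC2 peaks (15291 of 17437) and 75.2% of other ZIC2 peaks, against 78.9% of all ZIC2 peaks, a difference of 12.5 points (11.9 to 13.0). Within bands of like score it was smaller. Within the lowest, middle and highest tercile of ZIC2 scores the difference was 2.59 points (0.762 to 4.43), 2.45 points (1.38 to 3.46) and 0.192 points (0.0873 to 0.280). In the lowest of the 6 score groups 47.4% of promoter and 44.7% of other ZIC2 peaks had an activin-free peak, and in the highest group both shares rounded to 100%. Applied to the activin-free ZIC2 list, the same limits gave 17783 promoter peaks, 96.4% of which overlapped an EpiSC ZIC2 peak of any width or position. The same share over all activin-free ZIC2 peaks is not given, so the 96.4% does not show a trait particular to promoters. It was not read within bands of score. Protein-coding genes with a promoter ZIC2 peak numbered 12490 with activin and 12972 without, 55.9% and 58.0% of all protein-coding genes. Of these genes 11599 had one in both lists, 92.9% of the former and 89.4% of the latter.

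**Figure D4:**
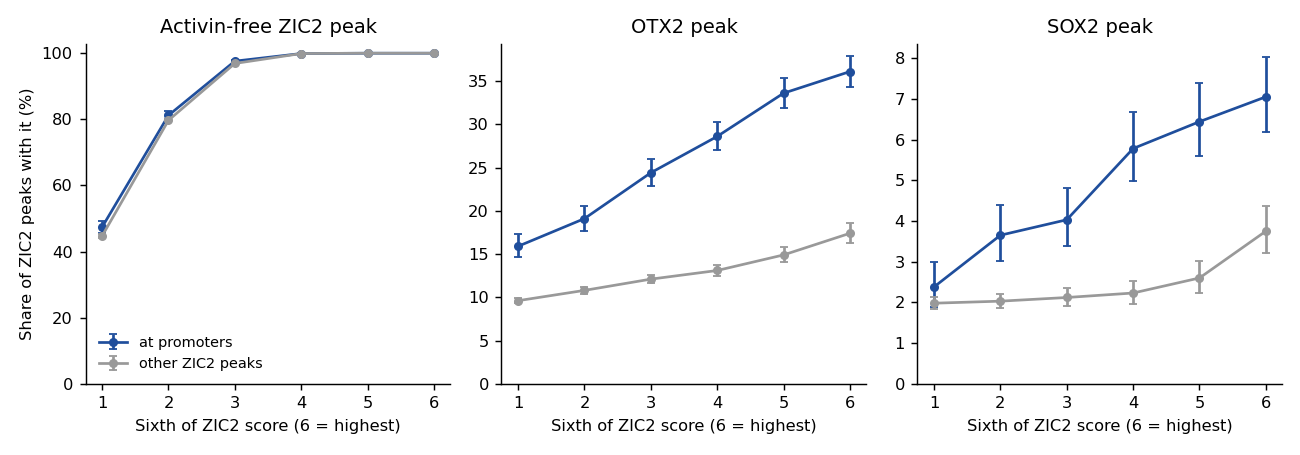
Share of promoter ZIC2 peaks (blue) and other ZIC2 peaks (grey) that overlap an activin-free ZIC2 peak (left), an OTX2 peak (middle) or a SOX2 peak (right), in 6 groups by ZIC2 score with limits set on the promoter peaks, and with 95% Wilson intervals. The 2 lines nearly coincide for activin-free ZIC2, from 47.4% and 44.7% up to 100%, and lie apart for OTX2, which ends at 36.1% and 17.4%.

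Where a promoter ZIC2 peak overlapped exactly 1 activin-free ZIC2 peak and the reverse (13894 pairs), the median score was 378 with activin and 415 without, with a median ratio of 1.16 (quartiles 0.861 and 1.47). The score was more than 2-fold higher in 4.64% of pairs and more than 2-fold lower in 4.51%, and the midpoints were a median of 58 bp apart. At other ZIC2 peaks the median ratio was 1.06. A score depends on the depth of each library, so these ratios are descriptions of 2 libraries. The 2146 promoter ZIC2 peaks without an activin-free peak had a median score of 74.3, a median width of 655 bp and a mean GC content of 55.9%, against 370, 1183 bp and 62.5% for those with one. The highest among them were at Thbs1, an extracellular matrix glycoprotein (314), Ttll3 (311), the RNA-binding protein gene Atxn2 (297), 4930444P10Rik (292) and the mucin gene Muc1 (284). Thus no promoter ZIC2 peak of score above 314 lacked an activin-free counterpart.

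The other factors were also read in their activin-free lists, at the same EpiSC promoter ZIC2 peaks. OTX2 then overlapped 23.0% of promoter and 10.1% of other ZIC2 peaks (12.7% of all), and SOX2 9.02% and 3.59% (4.62% of all). POU5F1 overlapped 4.35% and 4.31% (4.27% of all), with an interval of the difference that included 0 (-0.286 to 0.372), and POU3F1 overlapped 2.62% and 1.71% (1.80% of all). Of the 4582 promoter ZIC2 peaks with OTX2 in EpiSCs, 72.9% had it in the activin-free list as well. For SOX2, 587 promoter ZIC2 peaks had it in both lists, 265 with activin only and 985 without activin only. The same shares and counts between cultures are not given for other ZIC2 peaks, so they do not show whether such changes are particular to promoters. They also compare libraries whose lists differ in length. The SOX2 list held 63672 peaks with activin and 87781 without, and the POU5F1 list 62387 and 126751.

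In base composition the promoter ZIC2 peaks differed from other ZIC2 peaks in the direction of CpG islands. Over 100 bp to either side of the midpoint, GC content was 61.7% ± 8.54 (SD, n = 17437 peaks) against 54.4% ± 4.96 (n = 94725), a difference of 7.24 points (7.11 to 7.37). The ratio of observed to expected CpG was 0.536 against 0.192 (difference 0.344, 0.339 to 0.349). Windows 1000 bp beside the promoter peaks had 46.7% and 0.276, and windows at all annotated TSSs had 56.1% and 0.511. Since the peaks were chosen by distance to a TSS, the CpG ratio near that of all TSSs describes where they lie.

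Motif content was read as exact matches on both strands in the same windows. The ZIC motif, CCTGCTG, was present at 14.3% of the promoter ZIC2 peaks (13.8 to 14.9%) and at 20.5% of other ZIC2 peaks, a difference of -6.19 points (-6.77 to -5.61). It was in 5.18% of the windows 1000 bp beside the promoter peaks and in 8.16% of windows at all TSSs, so that promoter ZIC2 peaks held it 2.77 times as often as their surroundings. The surroundings had a mean GC content of 46.7%, against 61.7% at the peaks, and the comparison with them was not matched for it. The lower share than at other ZIC2 peaks was present within the lowest, middle and highest tercile of GC content, at -5.74, -4.09 and -6.72 points. A looser feature, a run of 3 G/C bases, then a single A/T base, then 3 more G/C bases, went the other way. This pattern was set here, after the study's account of ZIC2 sequences as G/C runs broken by A/T bases. It was in 92.8% of promoter and 82.5% of other ZIC2 peaks (10.4 points, 9.92 to 10.8), in 61.9% of the surroundings and in 77.7% of windows at all TSSs. Its difference was 2.58, 1.96 and 4.71 points within the lowest, middle and highest GC tercile, each with an interval above 0. GGGTGGTC, the GLI motif, was in 1.03% of promoter and 0.906% of other ZIC2 peaks, with an interval of the difference that included 0 (-0.0318 to 0.292), and in 0.513% of the surroundings.

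Motifs of general promoter factors followed the start sites. The GC box, GGGCGG, bound by SP and KLF zinc fingers, was in 31.1% of promoter ZIC2 peaks and 5.77% of other ZIC2 peaks, and in 29.8% of windows at all TSSs. CCGGAAG, the ETS motif, was in 5.64%, 1.36% and 7.12%, and TGACGTCA, the element of CREB and ATF factors, in 0.717%, 0.181% and 1.32%. GCGCATGCG, bound by NRF1, was in 0.642%, 0.0813% and 1.15%. Over all promoter ZIC2 peaks these shares were thus close to or under those of start sites in general, while the ZIC motif was above its share there. Start-site windows are centred on the TSS, and the promoter peaks lie at a range of distances from it. Promoter ZIC2 peaks within 100 bp of a TSS held the GC box in 45.2%, the ETS motif in 10.5%, TGACGTCA in 1.65% and GCGCATGCG in 1.25%. At this distance each of these shares, and the 12.8% of the ZIC motif, was above that of all start sites. The OTX motif GGATTA was in 3.0% of promoter ZIC2 peaks, 4.17% of other ZIC2 peaks and 9.18% of the surroundings, and in 3.71% of the promoter ZIC2 peaks with an OTX2 peak. CACGTG, the E-box, was in 4.36%, 2.81% and 2.84%, CCAAT in 15.8%, 19.6% and 22.9%, TATAAA in 2.14%, 3.36% and 11.8%, and the octamer ATGCAAAT in 0.539%, 0.915% and 0.906%.

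**Figure D5:**
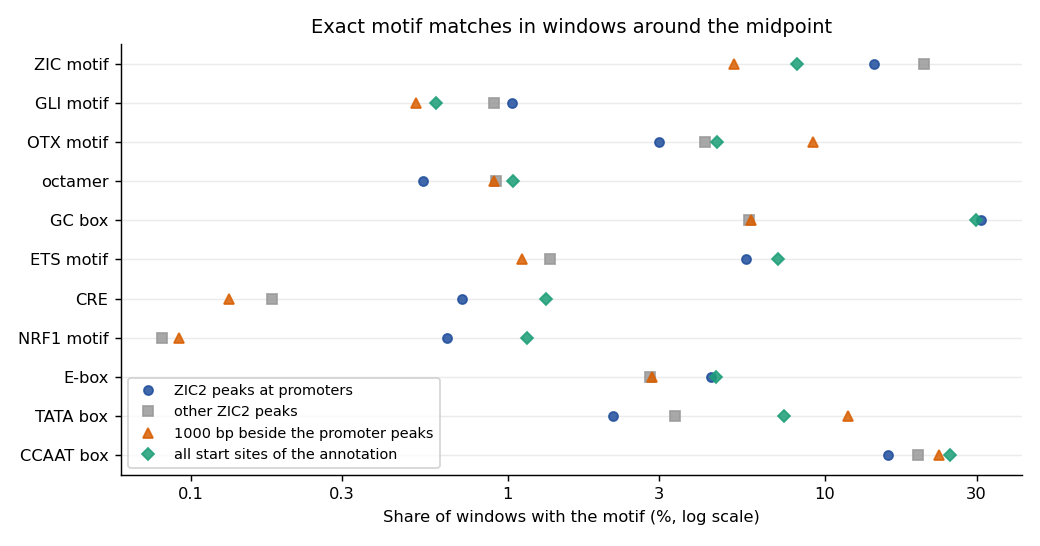
Share of windows (log axis) with an exact match to each motif, in the 100 bp to either side of promoter ZIC2 peaks, other ZIC2 peaks and annotated start sites, and 1000 bp beside the promoter peaks. The ZIC motif is at 14.3% of promoter ZIC2 peaks, between the 8.16% of all start sites and the 20.5% of other ZIC2 peaks, whereas the GC box is at 31.1%, near the 29.8% of all start sites. Among promoter ZIC2 peaks within 100 bp of a TSS, not drawn, the GC box is at 45.2%.

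With rising ZIC2 score the sequence features moved in different directions. Across the 6 score groups the G/C run broken by an A/T base went from 87.5% to 97.2% of windows. CCTGCTG was in 17.9%, 15.5%, 13.9%, 13.3%, 11.7% and 13.7% of windows. The GC box went from 13.3% to 48.3%, the mean GC content from 56.4% to 67.7% and the CpG ratio from 0.328 to 0.725. Promoter ZIC2 peaks more than 500 bp from a TSS held the ZIC motif in 17.0% and the GC box in 11%, and those within 100 bp held them in 12.8% and 45.2%. Score, distance and CpG content change together along these groups and cannot be told apart here.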

How the data were processed

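Peak lists of 10 ChIP-seq libraries, 1 for each of 5 factors in each of 2 cultures, were used as deposited. Per the labels and the study's methods, the authors read fragments of about 150 bp as 100 bp single-end reads, aligned them with Bowtie2 to mm9 and called peaks with MACS1.4 at a band width of 150 bp against 1 input library. The deposited value of each peak is a MACS score. No read counts were used, so depth, and the precision it gives, is unknown.

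Peaks on the autosomes and X were compared with 86803 TSSs of 95414 GENCODE vM1 transcripts (mm9). Overlap was at least 1 bp. Genes were counted by symbol within lists. Shares carry Wilson intervals, their differences Newcombe intervals and means normal intervals, all at 95%. A difference was called where its interval excluded 0. The functions were tested on simulated data. Python 3.11.15, numpy 2.4.6, pandas 2.3.3 and matplotlib 3.10.9 were used.

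Named genes were those of 23 lists, at the 10 highest-scoring promoter ZIC2 peaks, at the 5 highest without an activin-free ZIC2 peak, and at the 5 highest with all and with none of the other 4 factors. For long lists only part is named. Peaks, lists and motifs were chosen with earlier results of these data known. Alternatives comprised other TSS and width limits, scores, overlaps, comparison peaks, windows and, chosen after seeing the data, terciles of GC content and midpoints within 100 bp.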

Additional observations from a re-analysis of the deposited data

Results flagged for a closer look

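The excess of promoter over other ZIC2 peaks in the share with another factor was compared between the EpiSC and activin-free lists. For all 4 factors the interval of its change in points excluded 0. From EpiSC to activin-free lists the excess changed by -1.94 points for OTX2 (-2.45 to -1.43; from 14.8 to 12.9), by 2.71 points for SOX2 (2.30 to 3.11; from 2.72 to 5.43), by 0.474 points for POU5F1 (0.227 to 0.720; from -0.439 to 0.0346) and by 1.11 points for POU3F1 (0.895 to 1.32; from -0.201 to 0.909). The ZIC2 peaks are the same in both cases, and with 1 library for each factor and culture these intervals cover counting error only. They therefore cannot show a difference between cultures. The changes also depend on the scale. As a ratio of the promoter share to the other share, OTX2 had 2.29 in the EpiSC and 2.27 in the activin-free list. The ratios were 2.25 and 2.51 for SOX2, 0.850 and 1.01 for POU5F1, and 0.838 and 1.53 for POU3F1. The OTX2, SOX2 and POU5F1 lists were longer without activin (113831, 87781 and 126751 peaks) than with it (103109, 63672 and 62387), and the POU3F1 list was shorter (101920 against 112687). The part of list length in the changes was not tested.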

How the results depend on the processing

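No paired analysis was possible because each factor and culture has 1 library and the labels give no replicate numbers. The number of promoter ZIC2 peaks stayed within 1.5 times of the reported one except with a width limit of 1000 bp (7184). The share of protein-coding genes with one was 51.2% and 61.2% with limits of 500 and 2000 bp, 53.4% with TSSs of protein-coding transcripts, 67.7% without a width limit and 50.8% at scores of at least 100. The OTX2 difference was 8.50 points among peaks of at most 1000 bp. It turned only with midpoints within 100 bp (-0.106 points), where its interval included 0. The SOX2 difference turned with 50% overlap of both peaks (-0.168 points) and with midpoints within 100 bp (-0.192), and its interval included 0 with midpoints within 500 bp (0.156) and in the lowest tercile of ZIC2 scores (0.339). The POU5F1 difference lost its call against peaks 1 to 50 kb from a TSS (-0.225), with TSSs of protein-coding transcripts (-0.249) and in the middle tercile of GC content (-0.440), and turned in the highest one (0.0660). The POU3F1 difference turned against peaks 1 to 50 kb from a TSS (0.188), in the highest tercile of ZIC2 scores (0.282) and in the highest tercile of GC content (0.336), and its interval included 0 at scores of at least 100 (-0.130), for the 50000 highest-scoring peaks of each list (-0.00552), with TSSs of protein-coding transcripts (-0.0145), in the middle tercile of GC content (-0.0905) and with midpoints within 100 bp (-0.00993). The GGGTGGTC difference excluded 0 in windows of 250 bp to either side (0.378). The cause of these changes was not tested. The activin-free ZIC2, GC content, CpG and CCTGCTG differences kept sign and call under each alternative run. Gene list shares stayed within their Wilson interval in 89 recomputations with other limits and left it in 26. Unknown depth and single libraries limit all differences between lists.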
